A study of Homo sapiens with 9 samples.

Results

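The SR and hnRNP splicing factors are the genes whose symbols begin with SRSF and a number or with HNRNP. The annotation of the array platform listed 37 such symbols, 3 of them pseudogenes, which were left out. The remaining 34 genes, of 18354 genes with a named probe, were followed with 63 probes: 12 SRSF genes and 22 HNRNP genes. The rule uses symbols only, but it was set with earlier results of these data known. HNRNPC, a founding member of the hnRNP group, had no probe under its name and was not analysed here.

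The cells were HeyA8, an established human ovarian cancer line that the labels also spell Hey8A, measured on Illumina bead arrays. In the first group the cells shared wells with cancer-associated fibroblasts on inserts and spent the last 24 h without glutamine (deprived coculture). In the second they grew alone and spent the same 24 h without glutamine (deprived monoculture). In the third they grew alone and received complete medium (complete medium monoculture). Each group had 3 arrays, and all groups had their medium changed on day 4. Coculture with glutamine was not analysed here. All results therefore come from 1 cell line, and the difference between the deprived groups is that of the insert with fibroblasts. Nothing in the labels says whether the 3 arrays of a group came from separate experiments, so the p-values measure only the spread between these arrays, which may be technical.

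Levels are given on the deposited log2-like scale, and folds assume that this scale is log2. Values piled up at a floor near 7.39, and differences that involve a level near it understate the change. Array medians lay between 7.471 and 7.473 (deposited scale), so every level is relative to the other probes of the array. Replicate arrays had correlations of 0.996 to 0.998 across probes, and the least alike groups, the monocultures, 0.960 to 0.963. Of 12 fibroblast markers, 8, among them COL1A2, COL3A1, DCN and LUM, lay at or below the upper edge of the floor (7.48) in every group, and the mean of the list was 7.77 to 7.80 on the coculture arrays, 7.78 to 7.79 on the deprived monoculture arrays and 7.76 to 7.77 on the complete medium arrays. Of the 4 fibroblast markers tested, FAP and FBLN1 were higher and ACTA2 was lower in deprived coculture than in deprived monoculture, and COL1A1 was not called. Of 8 epithelial markers, CDH1 and MUC1 lay at the floor in every group. The other 6, KRT7, KRT8, KRT18, KRT19, EPCAM and PAX8, were all lower in deprived monoculture than in complete medium (median log2 difference -0.70), and KRT7, KRT8 and PAX8 were higher in deprived coculture than in deprived monoculture (median of the 6, 0.29). The part of these markers in the changes of the splicing factors was not tested.

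SR proteins carry RNA recognition motifs and a tail rich in arginine and serine. They bind exonic enhancers and help to recruit the spliceosome to nearby splice sites, and kinases of the SRPK and CLK families phosphorylate their tails. The hnRNPs coat nascent transcripts and often, though not always, repress the use of splice sites, so that the balance between the families is known to shape which exons are kept. Several of these genes also limit their own expression through poison exons, which send the transcript to nonsense-mediated decay. Many SR and hnRNP genes are known to be strongly expressed in dividing cells, and SRSF1 is a known oncogene.

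Of the 34 genes, 32 were bright enough to be tested, and in each of these 32 all 3 group means were above the minimum level of 7.46. The exceptions were SRSF12, with mean levels of 7.37, 7.39 and 7.39 in deprived coculture, deprived monoculture and complete medium, and HNRNPCL1, with 7.44, 7.44 and 7.48 in the same order. Both lay at the floor, where a difference could not be measured.

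The first comparison asked what 24 h without glutamine did to the splicing factors of cells grown alone. Of the 32 genes tested, 24 were lower in deprived monoculture and 4 were higher than in complete medium (limma, adjusted p under 0.05). Over all 10862 genes tested, 24.3% were called lower and 30% higher, or 54.3% in either direction. The members' median log2 difference was -0.33, against 0.015 over all genes tested. At least 1.5-fold lower were 8 members, against 6.31% of all genes, and 3 members were at least 2-fold lower, against 2.7% of all genes. In cultures measured as a whole, fewer cells of a kind and less RNA per cell cannot be told apart.

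**Figure D1:**
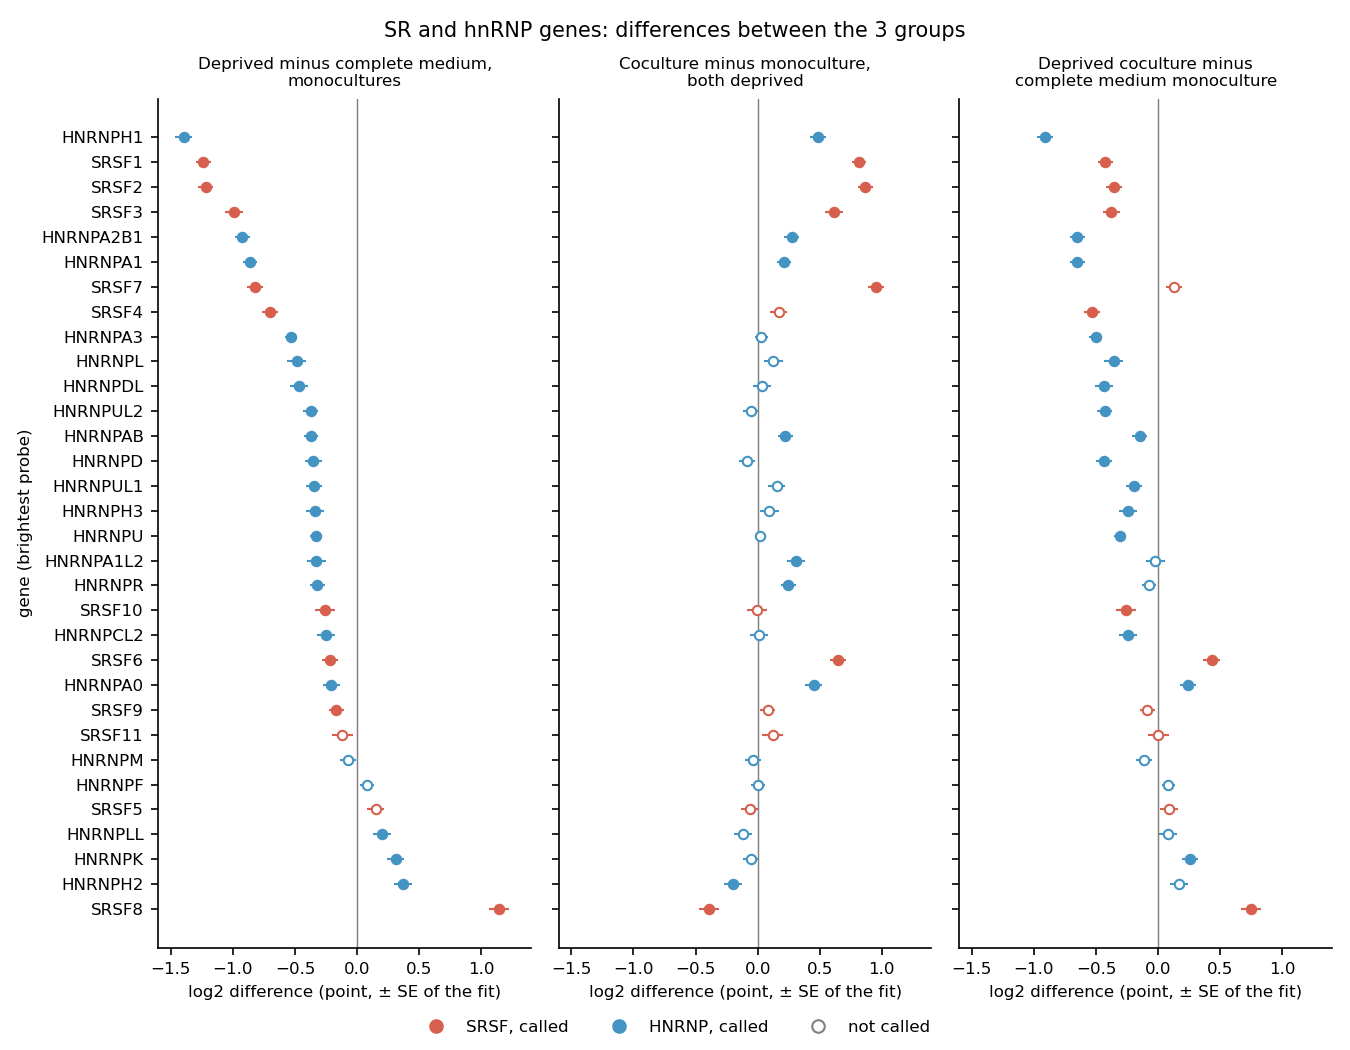
Log2 differences (horizontal axes, points with the SE of the fit) of the 32 tested genes (rows, SRSF in red and HNRNP in blue) for deprived monoculture minus complete medium, deprived coculture minus deprived monoculture and deprived coculture minus complete medium. Filled points are called, open points are not. In the left panel 24 members are called left of 0 and 4 right of 0, SRSF8 farthest at 1.14, and in the middle panel SRSF7, SRSF2, SRSF1, SRSF6 and SRSF3 lie farthest to the right.

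Among the SR proteins, SRSF1, SRSF2 and SRSF3 fell most. SRSF1, the factor first purified as an activator of splicing, had levels of 11.44, 11.54 and 11.50 in deprived coculture, 10.70, 10.68 and 10.66 in deprived monoculture and 11.86, 11.93 and 11.97 in complete medium. No group overlapped another, deprived monoculture was lowest and complete medium highest. SRSF1 was 2.36-fold lower in deprived monoculture than in complete medium (log2 difference -1.24, SE 0.0597, limma adjusted p = 4.92e-13). SRSF2, a core component of nuclear speckles that is recurrently mutated in myeloid neoplasms, had levels of 11.55, 11.51 and 11.42 in deprived coculture, 10.59, 10.66 and 10.63 in deprived monoculture and 11.83, 11.79 and 11.92 in complete medium. The groups were again in that order with no overlap. The fall of SRSF2 without glutamine was 2.33-fold (log2 difference -1.22, SE 0.0619, adjusted p = 1.14e-12).

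SRSF3, the smallest SR protein, which shuttles between nucleus and cytoplasm and takes part in mRNA export and polyadenylation, had levels of 9.09, 9.11 and 9.20 in deprived coculture, 8.43, 8.55 and 8.57 in deprived monoculture and 9.37, 9.64 and 9.51 in complete medium. All complete medium arrays were above all coculture arrays, and these above all deprived monoculture arrays. The difference without glutamine was -0.99 on the log2 scale, or 1.99-fold (SE 0.0709, adjusted p = 2.73e-10). SRSF7, a shuttling relative of SRSF3 that carries a zinc knuckle, had levels of 9.72, 9.60 and 9.59 in deprived coculture, 8.65, 8.64 and 8.77 in deprived monoculture and 9.54, 9.53 and 9.46 in complete medium. Here deprived monoculture stood alone at the low end, with the coculture arrays just above those of complete medium. SRSF7 was 1.77-fold lower without glutamine (adjusted p = 8.7e-10).

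SRSF4, a large SR protein with a long RS tail, had levels of 10.065, 10.002 and 10.199 in deprived coculture, 9.88, 9.92 and 9.96 in deprived monoculture and 10.70, 10.59 and 10.58 in complete medium, and was 1.62-fold lower in deprived monoculture than in complete medium (adjusted p = 1.94e-08). The deprived groups lay close together, below every complete medium array. SRSF6, known as a regulator of tau splicing, showed a smaller fall of 1.16-fold (log2 difference -0.22, adjusted p = 0.00786). SRSF9 and SRSF10 were lower by 0.17 and 0.26 on the log2 scale (adjusted p = 0.023 and 0.012). SRSF10 represses splicing in its dephosphorylated form, for example after heat shock. The calls of both by their brightest probes depended on single arrays. SRSF9 lost its call without deprived monoculture array 3 (adjusted p = 0.074), complete medium array 1 (0.0719) or complete medium array 3 (0.0553), and SRSF10 without deprived monoculture array 1 (0.0502) or 2 (0.0876). The second probe of SRSF10 was lower by 0.29 (adjusted p = 0.000553). In deprived coculture that probe was lower than in complete medium by 0.21 (0.00839). SRSF5 and SRSF11 were not called, with log2 differences of 0.15 (95% interval 0.0027 to 0.30) and -0.12 (-0.30 to 0.062).

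SRSF8 was the exception among the SR genes. It is a primate retrogene that arose from an SRSF2 transcript. SRSF8 had levels of 9.94, 9.91 and 10.07 in deprived coculture, 10.31, 10.54 and 10.25 in deprived monoculture and 9.19, 9.14 and 9.35 in complete medium. Every deprived array was above every complete medium array, and the deprived monoculture arrays were above those of coculture, the opposite order to SRSF2. SRSF8 was 2.2-fold higher in deprived monoculture (log2 difference 1.14, SE 0.0792, adjusted p = 1.82e-10), and it was the 1 member among those at least 1.5-fold higher, a class that held 6.57% of all genes. Whether its probe also picks up SRSF2 RNA was not tested.

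The stretches before the transcription start are shown for 4 members: SRSF1 and SRSF3, which fell without glutamine and were higher in coculture, HNRNPA2B1, which did likewise among the hnRNPs, and SRSF8, which moved the other way. Other members that fell and were higher in coculture, among them HNRNPH1 and SRSF7, are not shown. They are the 250 bases upstream of the start, 5' to 3' on the gene's strand, from RefSeq on build GRCh38.p14. They lie at chr17:58007247-58007496 (SRSF1, minus strand), chr6:36594112-36594361 (SRSF3, plus strand), chr7:26200747-26200996 (HNRNPA2B1, minus strand) and chr11:95066627-95066876 (SRSF8, plus strand, the first of its windows). Capitals mark CCAAT, the box bound by NF-Y, or its complement ATTGG, except in SRSF1, where they mark TGACGTC, part of the cyclic AMP response element.
SRSF1: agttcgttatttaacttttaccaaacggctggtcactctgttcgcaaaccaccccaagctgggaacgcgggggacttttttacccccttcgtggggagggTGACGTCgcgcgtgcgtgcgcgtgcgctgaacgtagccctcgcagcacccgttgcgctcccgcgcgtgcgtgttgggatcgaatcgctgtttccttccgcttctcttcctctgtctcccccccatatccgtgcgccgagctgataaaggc
SRSF3: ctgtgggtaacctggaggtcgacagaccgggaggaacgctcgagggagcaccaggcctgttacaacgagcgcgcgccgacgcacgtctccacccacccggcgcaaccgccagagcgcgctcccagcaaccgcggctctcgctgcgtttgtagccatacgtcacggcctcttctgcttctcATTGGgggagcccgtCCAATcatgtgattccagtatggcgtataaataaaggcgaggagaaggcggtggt
HNRNPA2B1: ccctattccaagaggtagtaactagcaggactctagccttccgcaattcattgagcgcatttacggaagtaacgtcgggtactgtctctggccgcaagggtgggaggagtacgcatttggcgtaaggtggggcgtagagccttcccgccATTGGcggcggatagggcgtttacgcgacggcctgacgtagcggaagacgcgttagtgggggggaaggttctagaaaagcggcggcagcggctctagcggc
SRSF8: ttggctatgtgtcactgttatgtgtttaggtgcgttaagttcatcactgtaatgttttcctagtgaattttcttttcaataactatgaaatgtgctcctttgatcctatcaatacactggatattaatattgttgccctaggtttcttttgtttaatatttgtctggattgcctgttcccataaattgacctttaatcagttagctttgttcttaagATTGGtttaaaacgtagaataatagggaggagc

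In SRSF1 the TGACGTC began 150 bases upstream of the start. SRSF3 had ATTGG beginning 70 bases upstream and CCAAT beginning 55 bases upstream. HNRNPA2B1 and SRSF8 had ATTGG beginning 101 and 33 bases upstream. The SRSF8 window was poor in G and C, at 33.6%, against a median of 64.8% over the 46 windows of the members and 58% over all windows of the table. A search of both strands, over these windows and the first 50 transcribed bases, found CCAAT in 20 of the 32 members with a window (matched by symbol, all except SRSF2 and HNRNPA1), against 39.7% of 27305 genes. CACGTG, the box bound by MYC, was in 7 of 32, against 8.77% of genes, and reads the same on both strands. The ETS site CCGGAAG was in 5 members (12.2% of genes), the cell cycle element TTTGAA in 4 (18.2%) and TGACGTC in SRSF1 alone (4.2%). No member's window held the E2F site TTGGCGC (3.66%) or the YY1 site AAGATGG (7.11%). The first letters of the E2F site can share bases with ATTGG, and CCAAT matches on opposite strands overlapped in HNRNPU and HNRNPUL1. SRSF7, the member with the largest rise in coculture, had no match to any of these motifs. HNRNPH1, with the largest fall without glutamine, had none upstream of the start, and its CCAAT lay within the first 50 transcribed bases. The windows shown above, each with a match, therefore do not stand for all members that changed. A match describes the letters of a window, and it is no measure of binding.

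Among the genes with HNRNP symbols the largest fall without glutamine was that of HNRNPH1, a protein that binds runs of guanine and can either enhance or silence exons. HNRNPH1 had levels of 10.73, 10.52 and 10.56 in deprived coculture, 10.11, 10.08 and 10.15 in deprived monoculture and 11.54, 11.53 and 11.47 in complete medium. The groups did not overlap, and coculture lay nearer to deprived monoculture than to complete medium. HNRNPH1 was 2.64-fold lower in deprived monoculture than in complete medium (log2 difference -1.398, SE 0.0656, adjusted p = 3.19e-13), the largest difference of any member in either comparison that involves deprived monoculture. Its relative HNRNPH3 was lower by 0.34 on the log2 scale (adjusted p = 0.000612), whereas HNRNPF, of the same family, was not called, with a difference of 0.08 (95% interval -0.034 to 0.19).

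HNRNPH2, encoded on the X chromosome and a close relative of HNRNPH1, was higher. Its levels were 8.51, 8.75 and 8.57 in deprived coculture, 8.84, 8.84 and 8.75 in deprived monoculture and 8.40, 8.35 and 8.59 in complete medium. All deprived monoculture arrays were above all complete medium arrays. The difference was 0.37 on the log2 scale, or 1.29-fold (SE 0.0735, adjusted p = 0.000258). The second probe of HNRNPH2 was higher by 0.26 (adjusted p = 0.00608), though by that probe the groups overlapped.

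Of the A/B proteins, classical silencers that bind UAG-containing motifs, all 6 tested fell. HNRNPA2B1, which also sorts microRNAs and transports RNA in the cytoplasm, had levels of 13.06, 13.21 and 13.08 in deprived coculture, 12.80, 12.92 and 12.81 in deprived monoculture and 13.71, 13.80 and 13.79 in complete medium. The groups did not overlap, and both deprived groups lay well under complete medium. HNRNPA2B1 was 1.9-fold lower in deprived monoculture (log2 difference -0.93, SE 0.0585, adjusted p = 4.15e-11). HNRNPA1, the protein that counteracts SRSF1 at many splice sites, had levels of 8.09, 8.10 and 8.21 in deprived coculture, 7.97, 7.90 and 7.89 in deprived monoculture and 8.76, 8.76 and 8.83 in complete medium. Again no group overlapped another. The fall of HNRNPA1 was 1.82-fold (log2 difference -0.86, SE 0.0571, adjusted p = 8.22e-11). HNRNPA3, HNRNPAB, HNRNPA1L2 and HNRNPA0 also fell, by 0.53, 0.37, 0.33 and 0.21 on the log2 scale. The call of HNRNPA0, which binds AU-rich elements, depended on deprived monoculture array 1 (adjusted p = 0.0772 without it) and complete medium array 1 (0.0593 without it).

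HNRNPL, a binder of CA repeats, was lower by 0.49 on the log2 scale (adjusted p = 2.29e-05), and HNRNPDL was lower by 0.47. HNRNPD, which binds AU-rich elements and speeds mRNA decay, was lower by 0.35. HNRNPU, a chromatin scaffold protein, was lower by 0.33, and since its means of 7.52 in deprived coculture, 7.50 in deprived monoculture and 7.83 in complete medium lay close to the floor, this difference understates the change. HNRNPUL1, HNRNPUL2 and HNRNPR were lower by 0.35, 0.37 and 0.32. HNRNPCL2, a near copy of HNRNPC whose probe may also pick up HNRNPC RNA, was lower by 0.25 (adjusted p = 0.00513), a call lost without complete medium array 3 (0.0505). HNRNPM was not called, with a difference of -0.07 on the log2 scale (95% interval -0.21 to 0.061).

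Higher without glutamine were also HNRNPK and HNRNPLL. HNRNPK binds runs of cytosine through KH domains and acts in transcription and translation as well as splicing. Its levels were 11.96, 11.90 and 12.01 in deprived coculture, 11.88, 12.04 and 12.11 in deprived monoculture and 11.67, 11.69 and 11.74 in complete medium. The deprived groups overlapped each other, and both lay above complete medium. The rise of HNRNPK was 1.24-fold (log2 difference 0.31, SE 0.0654, adjusted p = 0.000435), but with the mean of its probes in place of the brightest the difference was 0.061 (adjusted p = 0.373). HNRNPLL, known for switching CD45 isoforms in lymphocytes, had levels of 8.60, 8.44 and 8.27 in deprived coculture, 8.49, 8.60 and 8.57 in deprived monoculture and 8.42, 8.30 and 8.34 in complete medium. The coculture arrays overlapped both other groups. HNRNPLL was 1.15-fold higher in deprived monoculture (adjusted p = 0.0249), and it lost its call without deprived monoculture array 2 (0.0888) or 3 (0.0522) or complete medium array 2 (0.0931) or 3 (0.0637).

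The second comparison asked what the fibroblasts on inserts changed in cells that had no glutamine. It uses the same deprived monoculture arrays as the first, so the spread of these arrays enters both with opposite sign. In deprived coculture 12 of the 32 members were higher and 2 were lower than in deprived monoculture, against 12.7% and 15.1% of all genes tested, or 27.8% in either direction. The members' median log2 difference was 0.11, against -0.0095 over all genes. At least 1.5-fold higher were 5 members, all of them SR genes, against 1.76% of all genes, and no member was 1.5-fold lower (0.829% of all genes) or 2-fold higher (0.497%). Of the 11 SRSF genes tested, 5 were higher and 1 lower, with a median difference of 0.17 on the log2 scale. Of the 21 HNRNP genes, 7 were higher and 1 lower, with a median of 0.03. The difference between the families was not tested.

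The SR genes that were higher in coculture were SRSF7, SRSF2, SRSF1, SRSF6 and SRSF3. SRSF7 averaged 9.64 ± 0.0713 in deprived coculture and 8.69 ± 0.0678 in deprived monoculture (deposited scale, SD, n = 3 each), which is 1.93-fold higher (log2 difference 0.95, SE 0.0633, limma adjusted p = 7.19e-10). SRSF2 was 1.82-fold higher (log2 difference 0.87, adjusted p = 2.01e-09), and SRSF1 was 1.76-fold higher (0.82, adjusted p = 2.85e-09). SRSF3 was 1.53-fold higher (0.62, adjusted p = 1.53e-06). In each of these genes all coculture arrays were above all deprived monoculture arrays.

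SRSF6 had levels of 11.71, 11.65 and 11.61 in deprived coculture, 10.97, 11.12 and 10.94 in deprived monoculture and 11.28, 11.23 and 11.17 in complete medium. The coculture arrays stood above every other array, complete medium included. SRSF6 was 1.56-fold higher in deprived coculture than in deprived monoculture (log2 difference 0.65, SE 0.0649, adjusted p = 2.47e-07). SRSF8 was the 1 SR gene called lower, at 1.31-fold (log2 difference -0.39, SE 0.0792, adjusted p = 0.000885). SRSF4 was not called (0.17, 95% interval 0.029 to 0.31, adjusted p = 0.0675), and it was called without deprived coculture array 2 (0.0499). SRSF5, SRSF9, SRSF10 and SRSF11 were not called either, with differences between -0.06 and 0.12, and SRSF11 was called without deprived monoculture array 3, at 0.24 (adjusted p = 0.026).

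**Figure D2:**
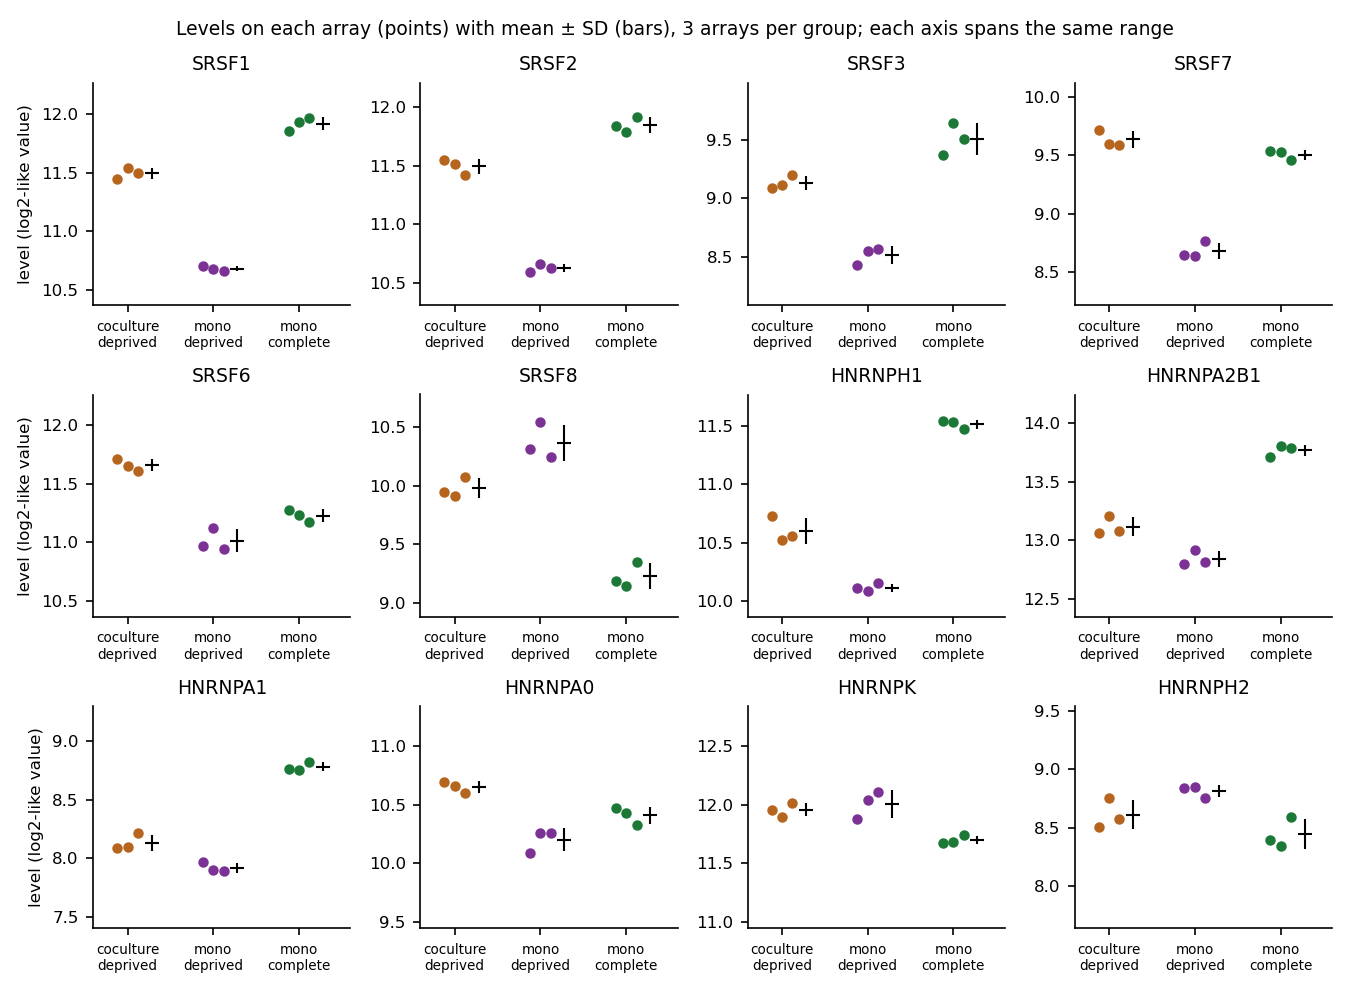
Levels on every array, on the deposited log2-like scale, of 12 members, with deprived coculture on the left, deprived monoculture in the middle and complete medium on the right. Points are the 3 arrays of a group and the black marks are mean and SD. Deprived monoculture is lowest for SRSF1, SRSF2, SRSF3 and SRSF7 and highest for SRSF8.

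No gene with an HNRNP symbol was 1.5-fold higher in coculture. HNRNPH1 came nearest and was 1.4-fold higher in deprived coculture (log2 difference 0.49, SE 0.0656, adjusted p = 1.09e-05). HNRNPA0 was 1.37-fold higher (0.45, adjusted p = 3.79e-05), and its levels of 10.69, 10.66 and 10.60 in deprived coculture lay above the 10.09, 10.26 and 10.26 of deprived monoculture and the 10.47, 10.43 and 10.33 of complete medium. By their brightest probes HNRNPA1L2, HNRNPA2B1, HNRNPR, HNRNPAB and HNRNPA1 were 1.24-, 1.21-, 1.19-, 1.17- and 1.16-fold higher (adjusted p between 0.00139 and 0.00849). HNRNPA1 lost its call without deprived coculture array 3 (0.0534). HNRNPH2 was lower by 0.20 on the log2 scale (adjusted p = 0.0478), a call that was lost in 9 of 18 alternative settings. Its adjusted p over all 18 ranged from 0.0168 to 0.205. Without deprived coculture array 1 or 3, deprived monoculture array 1 or 2, or complete medium array 1, its adjusted p was 0.205, 0.133, 0.114, 0.13 and 0.0562. In the fit of all probes the brightest HNRNPH2 probe had an adjusted p of 0.0513, and the second, lower by 0.22, had 0.0414.

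HNRNPK was not called in coculture, with a log2 difference of -0.05 (95% interval -0.19 to 0.085). HNRNPA3, HNRNPD, HNRNPDL, HNRNPU, HNRNPUL2 and HNRNPCL2, all lower without glutamine, were not called either, with log2 differences between -0.08 and 0.03. The second probe of HNRNPDL was called higher in coculture, by 0.28 (adjusted p = 0.00192), and with the mean of its probes HNRNPDL was higher by 0.16 (0.0313), against 0.03 for the brightest probe alone. For HNRNPA3 the interval ran from -0.074 to 0.13, against its difference of -0.53 between deprived monoculture and complete medium. HNRNPH3, HNRNPF, HNRNPM and HNRNPLL were not called, with log2 differences between -0.12 and 0.09. HNRNPL and HNRNPUL1 had differences of 0.13 and 0.15, and they were called without deprived monoculture array 3 (adjusted p = 0.0429) and without deprived monoculture array 1 (0.0381). The second probe of HNRNPUL1 was called higher, by 0.29 (0.00236).

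The third comparison set deprived coculture against complete medium, groups that differ in both glutamine and fibroblasts. It shares its arrays with the other comparisons. In deprived coculture 18 of 32 members were lower and 4 were higher than in complete medium, against 20.7% and 22.3% of all genes, or 43% in either direction. The median log2 difference of the members was -0.22, against 0.0076 over all genes. HNRNPH1 stayed furthest below complete medium, 1.88-fold lower in deprived coculture (log2 difference -0.91, adjusted p = 7.14e-10), followed by HNRNPA1 and HNRNPA2B1, both 1.57-fold lower by their brightest probes. For HNRNPA2B1 this rests on 1 of 4 probes, since the others were not called. The second HNRNPA1 probe was 1.27-fold lower (adjusted p = 0.000103), less than the brightest (difference of changes -0.31, adjusted p = 0.0044). HNRNPH1, HNRNPA1 and HNRNPA2B1 were the 3 members at least 1.5-fold lower by their brightest probes, against 3.54% of all genes.

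SRSF1, SRSF2 and SRSF3 were 1.34-, 1.28- and 1.3-fold lower in deprived coculture than in complete medium (adjusted p = 7.48e-06, 9.05e-05 and 0.000206). SRSF7 was not called, with a difference of 0.13 on the log2 scale (95% interval -0.0021 to 0.26). SRSF6 was 1.35-fold higher in deprived coculture (adjusted p = 1.78e-05), HNRNPA0 1.18-fold higher (0.00632) and SRSF8 1.68-fold higher (1.87e-07), the 1 member at least 1.5-fold higher, against 2.87% of all genes. HNRNPK was 1.2-fold higher by its brightest probe (log2 difference 0.26, adjusted p = 0.00303), and with the mean of all its probes the sign turned, at -0.027 (0.736). HNRNPAB was lower by 0.15 with an adjusted p of 0.0499, and in 13 of 18 alternative settings its call was lost. It was lost without any of the deprived coculture and deprived monoculture arrays and without complete medium arrays 1 and 3, with adjusted p from 0.0506 to 0.2. This call rests on the brightest HNRNPAB probe, which had an adjusted p of 0.0548 in the fit of all probes. In that fit the next brightest and the dimmest HNRNPAB probes were called lower in deprived coculture than in complete medium. Their log2 differences were -0.24 and -0.47 (adjusted p = 0.0145 and 0.000187). The other 11 members called lower were SRSF4, SRSF10, HNRNPA3, HNRNPCL2, HNRNPD, HNRNPDL, HNRNPH3, HNRNPL, HNRNPU, HNRNPUL1 and HNRNPUL2, with log2 differences from -0.53 for SRSF4 to -0.20 for HNRNPUL1. By its second probe HNRNPUL1 was lower by 0.35 (limma adjusted p = 0.000233 in the fit of all probes).

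Of the 34 genes, 17 had more than 1 probe. Different probes of a gene can report different transcripts, and their changes were compared by fitting the per-array difference between the brightest probe and each other probe. Of 26 such pairs in 15 genes, 12 pairs in 8 genes changed differently between deprived monoculture and complete medium, against 32.5% of 3259 pairs over all genes. Between deprived coculture and deprived monoculture 3 pairs in 3 genes did, against 10.1% of all pairs, and between deprived coculture and complete medium 8 pairs in 5 genes, against 23.1%.

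HNRNPA2B1 had 3 pairs that changed differently without glutamine. Its brightest probe was lower by 0.93 on the log2 scale. The next brightest had levels of 10.87, 10.90 and 10.73 in deprived coculture, 10.80, 10.86 and 10.84 in deprived monoculture and 10.72, 10.73 and 10.81 in complete medium. That probe was close to flat, with a difference of 0.08 between deprived monoculture and complete medium (adjusted p = 0.345). The change of the brightest probe less that of this probe was -1.002 (limma, adjusted p = 5.4e-09). The remaining probes of HNRNPA2B1 were lower by 0.34 and 0.58, and in coculture they were higher by 0.32 and 0.44 on the log2 scale, against 0.27 for the brightest and 0.0046 for the next brightest. Between deprived coculture and complete medium the brightest probe of HNRNPA2B1 was lower by 0.65, whereas the others, in order of brightness, had differences of 0.08, -0.02 and -0.14, none of them called (adjusted p = 0.348, 0.83 and 0.0805).

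HNRNPH1 fell by 1.398, 1.18 and 0.39 on the log2 scale by its 3 probes, from the brightest to the dimmest. The dimmest had levels of 8.49, 8.49 and 8.53 in deprived coculture, 8.53, 8.43 and 8.43 in deprived monoculture and 8.74, 8.999 and 8.81 in complete medium. In coculture the first and second probes of HNRNPH1 were higher by 0.49 and 0.38, whereas this dimmest probe differed by 0.04 (adjusted p = 0.735). The brightest changed more than the dimmest both without glutamine (difference of changes -1.01, adjusted p = 2.86e-08) and in coculture (0.45, adjusted p = 0.00227).

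SRSF3 was similar. Its second probe, with levels of 8.12, 8.13 and 8.08 in deprived coculture, 8.05, 8.01 and 7.88 in deprived monoculture and 8.42, 8.50 and 8.38 in complete medium, was lower by 0.45 on the log2 scale without glutamine and higher by 0.13 in coculture (adjusted p = 0.12). The changes of the SRSF3 probes differed in both comparisons, by -0.54 and 0.49 (adjusted p = 6.86e-05 and 0.000948). A level nearer the floor moves less on this scale, and the part of that in these differences was not tested.

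For HNRNPK the probes disagreed in direction. The brightest and the dimmest of 4 were higher without glutamine, by 0.31 and 0.26 on the log2 scale (adjusted p = 0.000502 and 0.00329 over all probes), the second brightest had a difference of -0.09 (0.323), and the third was lower by 0.23 (0.0417). The brightest differed from the second and the third by 0.40 and 0.54 (adjusted p = 0.000307 and 0.00127). HNRNPAB, a gene whose probes all fell, was lower by 0.37, 0.52 and 0.87, with the steepest fall in the dimmest probe. HNRNPUL1 was lower by 0.35 by its brightest probe and by 0.64 by its second, a difference of changes of 0.29 (adjusted p = 0.00502), while its dimmest probe, close to the floor, had a difference of 0.02 (0.756). The first and second probes of HNRNPR were lower by 0.32 and 0.24 without glutamine, and higher by 0.25 and 0.29 in coculture. The dimmest HNRNPR probe differed by -0.06 (0.488) and -0.04 (0.773). Without glutamine the brightest changed more than this probe (difference of changes -0.26, adjusted p = 0.0418).

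**Figure D3:**
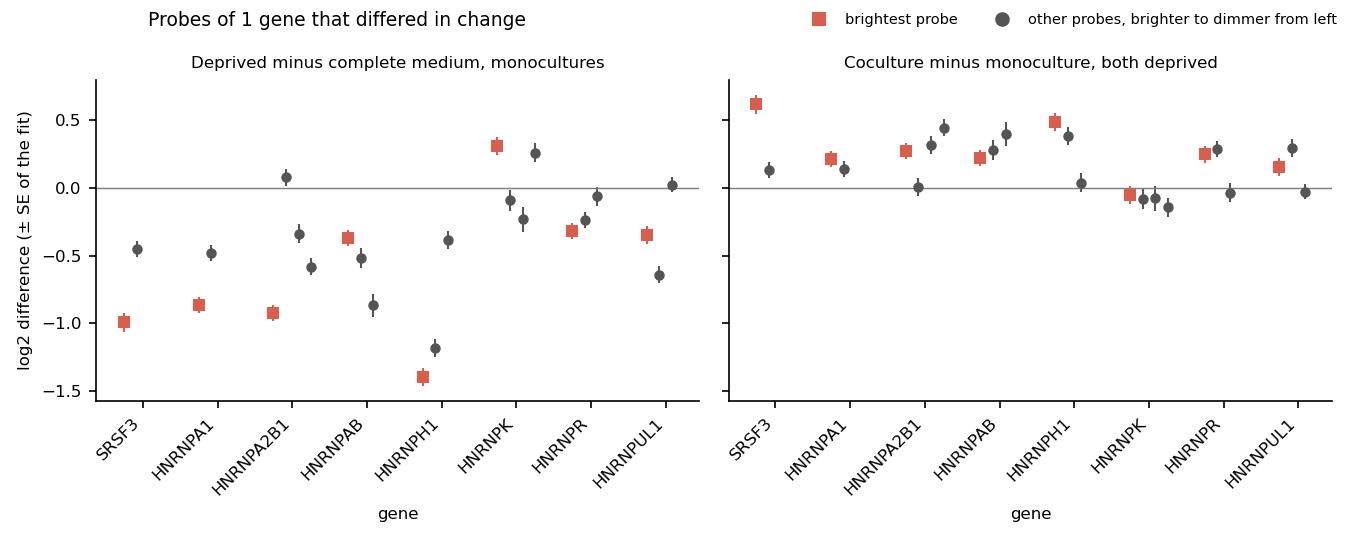
Log2 differences of single probes (vertical axes, with the SE of the fit) of the 8 members with probes that changed differently, for deprived monoculture minus complete medium on the left and deprived coculture minus deprived monoculture on the right. Red squares are the brightest probes, and the other probes follow from left to right in order of brightness. The second probe of HNRNPA2B1 lies at 0.08 without glutamine while the brightest lies at -0.93, and the probes of HNRNPK lie on both sides of 0.

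HNRNPA1 has many processed copies in the genome, and the probe named for 1 of them, the pseudogene HNRNPA1P10, may pick up HNRNPA1 RNA. It had levels of 11.59, 11.76 and 11.92 in deprived coculture, 11.16, 10.92 and 11.06 in deprived monoculture and 11.89, 11.86 and 12.003 in complete medium. Without glutamine the HNRNPA1P10 probe was lower by 0.87 on the log2 scale (adjusted p = 1.32e-08), and in coculture it was higher by 0.71 (1.31e-06), against 0.21 for the brightest HNRNPA1 probe. Between deprived coculture and complete medium the HNRNPA1P10 probe had a difference of -0.16 (0.123). The second HNRNPA1 probe was lower by 0.48 without glutamine (1.01e-06), less than the brightest (difference of changes -0.38, adjusted p = 0.000356). In coculture that second probe had a difference of 0.14 (0.106). Which of these probes better reports HNRNPA1 was not tested.

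Other parts of the splicing machinery gave a background for these changes, by gene lists drawn up from general knowledge. All list counts are to be read beside the shares of all genes tested. Without glutamine 30% of all genes were called higher and 24.3% lower, and in coculture 12.7% higher and 15.1% lower. The list of kinases and transport factors of SR proteins had 10 tested genes, of which 4 were lower and 0 higher without glutamine (median log2 difference -0.11). In coculture 2 were higher and 1 lower. These counts include TELO2, which shares a synonym with CLK2 and was matched in its place. TELO2 is not a kinase of SR proteins and was not called, and CLK2 had no probe under its name. SRPK1, the cytoplasmic kinase of SR proteins, was 1.51-fold lower in deprived monoculture than in complete medium (adjusted p = 1.35e-06) and 1.3-fold higher in deprived coculture than in deprived monoculture (0.000842). Of 26 SR-related proteins, 9 were higher and 7 lower without glutamine, with a median of 0.028. In coculture 4 were higher and 4 lower. CCNL1, a cyclin with an RS domain, and SRRM2, a scaffold of nuclear speckles, were 1.36- and 1.35-fold higher without glutamine. SRRM1, a coactivator that bridges SR proteins and the core machinery, was 2.07-fold lower without glutamine (adjusted p = 1.5e-11) and 1.41-fold higher in coculture (4.65e-06).

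Of the hnRNP proteins with other symbols, 12 of 18 tested genes were lower and 2 higher without glutamine, with a median of -0.23 on the log2 scale. In coculture 3 were higher and 1 lower, with a median of 0.033. RBMX, the X-linked hnRNP G, was 3.92-fold lower in deprived monoculture than in complete medium (log2 difference -1.97, SE 0.0632, adjusted p = 6.79e-16) and 2.26-fold higher in deprived coculture than in deprived monoculture (1.17, adjusted p = 3.19e-11). CIRBP, a cold-inducible RNA-binding protein, was 3.34-fold higher without glutamine (adjusted p = 5.53e-14). PTBP1, a repressor that binds pyrimidine tracts, was 1.22-fold lower in coculture (adjusted p = 0.0031). Of 27 other regulators of alternative splicing, 4 were higher and 11 lower without glutamine, and 7 were higher and 7 lower in coculture. Among them RBM4 was 1.72-fold higher without glutamine and 1.59-fold lower in coculture, and NONO, a paraspeckle protein, 1.59-fold lower and 1.26-fold higher.

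For the core of the spliceosome the counts are given by complex. Of 16 Sm and LSm ring proteins, many of which belong to snRNPs, 12 were lower and 2 higher without glutamine (median log2 difference -0.37). In coculture 6 were higher and 1 lower (median 0.096). LSM5 was 2.68-fold lower without glutamine and 1.63-fold higher in coculture (adjusted p = 2.71e-13 and 9.36e-08). Of 19 proteins of U1 and U2 snRNP, 9 were lower and 5 higher without glutamine, with SNRNP70 2.17-fold lower and SF3B4, a subunit of U2 snRNP, 1.57-fold higher. In coculture 3 of the list were higher and 3 lower. The 20 proteins of the tri-snRNP had 5 lower and 6 higher without glutamine, close to the 24.3% and 30% of all genes. Among them PPIH was 2.34-fold lower and CD2BP2 2.13-fold higher without glutamine. In coculture 1 of the list was higher and 5 were lower.

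The later-acting factors are read against the 30% of all genes called higher and the 24.3% called lower without glutamine, and the 12.7% and 15.1% in coculture. Of 29 proteins of the PRPF19 complex and the catalytic steps, 11 were higher and 3 lower without glutamine (median log2 difference 0.10), and 0 were higher and 11 lower in coculture (median -0.13). PLRG1, a core subunit of that complex, was 2.05-fold higher without glutamine and 1.37-fold lower in coculture (adjusted p = 1.8e-11 and 1.14e-05). DHX15 and BUD13 of this list were 1.67- and 1.43-fold lower without glutamine, and neither was called in coculture. Of 9 factors of nonsense-mediated decay, the pathway that degrades transcripts with poison exons, 6 were higher and 0 lower without glutamine (median 0.30), and 4 were lower in coculture (median -0.15). The helicase DHX34 was 1.54-fold higher without glutamine (adjusted p = 2.16e-08), and SMG5 was 1.3-fold lower in coculture (0.00014). Of 16 proteins of the exon junction complex and mRNA export, 6 were higher and 4 lower without glutamine (median -0.0033). In coculture 2 were higher and 3 lower. EIF4A3, the helicase that anchors the exon junction complex, was 1.45-fold higher without glutamine and 1.35-fold lower in coculture. DDX39A and THOC3 were 2.06- and 2.045-fold lower without glutamine. In coculture THOC3 was 1.24-fold higher and DDX39A was not called. Differences between lists were not tested.

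Markers of proliferation were compared in the same way. All 15 were lower in deprived monoculture than in complete medium, with a median log2 difference of -2.66, and in deprived coculture 13 were higher and 1 (PCNA) lower than in deprived monoculture, with a median of 0.70. The array means of this list were 8.97 to 9.02 in deprived coculture, 8.21 to 8.23 in deprived monoculture and 10.40 to 10.44 in complete medium. CDK1 was 13.6-fold lower without glutamine and 3.97-fold higher in coculture (adjusted p = 1.06e-19 and 5.66e-14). The part of these markers in the changes of the splicing factors was not tested. The fibroblast markers, most of them at the floor, are given with the samples above.

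**Figure D4:**
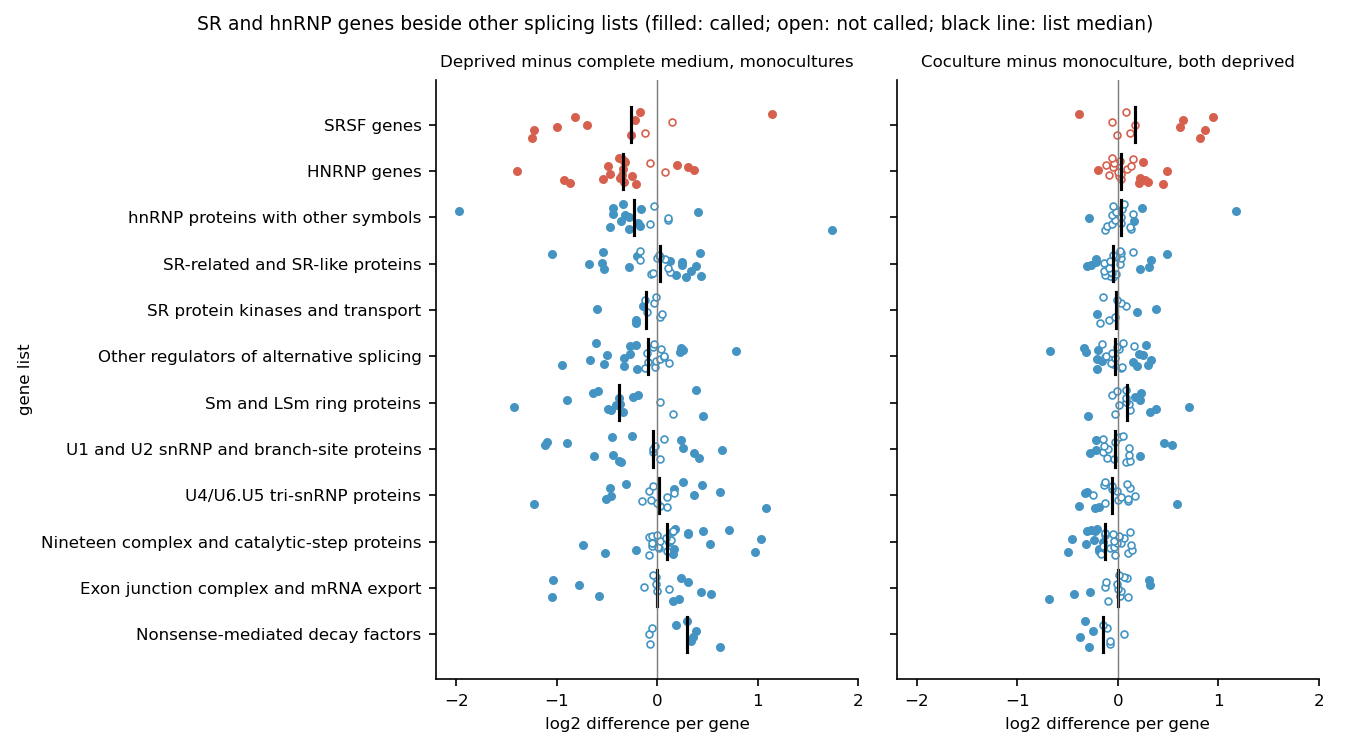
Log2 differences of single genes (points, filled where called) in the SRSF and HNRNP genes and in 10 other splicing lists, with the list median as a black line, for deprived monoculture minus complete medium on the left and deprived coculture minus deprived monoculture on the right. In the left panel the medians of the SRSF genes (-0.26), the HNRNP genes (-0.34) and the Sm and LSm proteins (-0.37) lie below 0, and that of the factors of nonsense-mediated decay (0.30) lies above. The list of SR protein kinases and transport holds TELO2, matched in place of CLK2.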

How the data were processed

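Per the labels, total RNA was amplified to biotinylated cRNA with an Illumina kit. The deposited table holds 1 value per probe and array on a log2-like scale for 34476 probes and 9 arrays. Per the submitters' processing notes lumi was used, with its version, its settings and the choice of plain log2 or variance stabilisation not given in the sources used here. Detection p-values were not used. Precision is limited by having 3 arrays a group.

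The platform annotation named the probes, with 26366 probes of 1 symbol, 3 of several and 8107 of none, and 26333 were found by gene identifier in RefSeq, which changed 0 symbols. A gene was represented by its brightest probe and kept when the mean over all arrays was above the median of all probes, 7.46. Groups were compared in limma 3.58.1 (lmFit, then eBayes with a trend; R 4.3.3) in a single fit of all 9 arrays with a mean for each group, 6 residual degrees of freedom and 13.3 from the prior. Two-sided p-values received a Benjamini-Hochberg adjustment across the 10862 genes, and calls were made under 0.05. Pairs of probes were adjusted over 3259 pairs. Single probes were adjusted over 14121 probes, in the paragraphs on probes and pseudogenes and wherever a further probe of a gene is named. The scripts were tested on simulated data. Tables, promoter searches and plots used Python 3.11.15 with matplotlib 3.10.9, pandas 2.3.3 and numpy 2.4.6.

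The members, gene lists, motifs and tests were chosen with earlier results of these data known. Named in full were, among called members, those with the 4 greatest rises and the 4 greatest falls in the deprivation and coculture comparisons, together with SRSF1, SRSF2, SRSF3, SRSF7, HNRNPA1, HNRNPA2B1, HNRNPC and HNRNPK whatever their values, and up to 2 called genes in each direction of each other list. Every other member was summarised. SRSF4, HNRNPA0 and the probes shown per array were singled out after their values were seen. Groups share replicate numbers. The deviations of same-numbered arrays from their group means had r from -0.26 to 0.21 in 9 pairs, over 0.1 in 3. Deviations within a group of 3 depend on each other, so these values cannot exclude a pairing. The numbers were not taken as pairs. The alternatives left out each array in turn, averaged the probes of a gene, changed the filter or the scaling, changed the variance model, fitted only the groups compared, added the replicate number as a block, or left out members with a pseudogene in the table.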

Additional observations from a re-analysis of the deposited data

How the results depend on the processing

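Of 96 results (32 members in 3 comparisons), 64 were called, and 50 of these kept their call in every alternative setting that tested them, 18 for all members except HNRNPA3 and HNRNPU, which had 17 because the stricter filter left them out. The counts of members lower (22 to 24) and higher (3 to 4) in deprived monoculture than in complete medium, higher in deprived coculture than in deprived monoculture (11 to 14), and lower (14 to 18) and higher (3 to 5) in deprived coculture than in complete medium stayed within 1.5 times the reported counts. The count of members lower in deprived coculture than in deprived monoculture, reported as 2, was 1 without the filter, with quantile normalization and with eBayes without a trend, and ranged from 1 to 2 when single arrays were left out. The gene lost was HNRNPH2. With the replicate number as a block this count was also 1, against complete medium 4 members were higher and 24 lower in deprived monoculture, 12 were higher in deprived coculture than in deprived monoculture, 4 were higher and 17 lower in deprived coculture than in complete medium, and the calls lost under the block were those of HNRNPH2 and HNRNPAB. HNRNPK, higher in deprived coculture than in complete medium by its brightest probe, had a difference of -0.027 with the mean of all its probes, 1 of which, the third brightest, was lower.

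Besides the calls named above with their arrays, SRSF10 lost its call between deprived coculture and complete medium without coculture array 3 (adjusted p = 0.104) or complete medium array 1 (0.0535), HNRNPH3 without coculture array 3 (0.0659) or complete medium array 3 (0.0651), HNRNPUL1 without coculture array 2 (0.0609) or 3 (0.0525) or complete medium array 1 (0.0842), and HNRNPCL2 without complete medium array 3 (0.0792). HNRNPH2 gained a call there without coculture array 1 (0.0369) or complete medium array 3 (0.0165), and SRSF11 gained a call between the monocultures without deprived array 3 (0.013). With the mean of all probes SRSF5 was called between the monocultures (0.02) and HNRNPDL in coculture (0.0313). SRSF4 was called in coculture with a stricter filter (0.0473) and without the trend (0.0407). Pairs of probes could not be given with the mean of all probes. Apart from the mean of probes for HNRNPK, the cause of these changes was not tested. Signal over background was not measured here, and levels near the floor hold only a lower limit of the change.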
